A study of Caenorhabditis elegans with 6 samples.

Results

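Saposin-like proteins and lysosomal proteases of the nematode Caenorhabditis elegans are described here in control animals and in animals treated with HLB01. The genes were taken by symbol from the deposited expression table: saposin-like genes named spp with a number, aspartyl protease genes named asp with a number, cathepsin B-like genes named cpr with a number, and the single genes cpl-1 and cpz-1. This gave 57 of the 46778 genes of the table, 30 saposin-like, 17 aspartyl protease and 10 cathepsin genes. Of the 57, 42 reached 1 TPM in at least 3 of the 6 libraries and were tested, 22 saposin-like, 11 aspartyl protease and 9 cathepsin genes. TPM is an abundance scaled for transcript length and for the library total, so levels can be compared between genes.

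RNA was sequenced from 3 Control and 3 HLB01 libraries of C. elegans. HLB01 is a code name, and the series title names an extract made from Vicatia thibetica roots. Strain, stage, dose and duration were not stated in the sources used here. The titles number the treated libraries as 3 replicates of HLB01 and were followed, although the agent label changes from HLB01 to HLB02 and HLB03 among them. Since nothing says that replicates came from separate cultures, p-values reflect the spread between these samples alone, which may be technical.

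Saposin-like proteins are small proteins held together by disulfide bonds that bind lipids. Some worm members, such as SPP-1, SPP-5 and SPP-12, form pores in bacterial membranes and are called caenopores, while vertebrate saposins help lysosomal enzymes reach sphingolipids. Aspartyl proteases of the cathepsin D type and papain-type cysteine proteases of the cathepsin B, L and Z types digest proteins in acid compartments. In C. elegans they act in lysosomes and in the lumen of the intestine, where the animal breaks down the bacteria it eats.

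In a principal component analysis of all tested genes, HLB01 replicate 3 scored 32.01 on the leading component (31.3% of the variance) where the other 5 libraries scored -15.3 to -0.57, and held the most ribosomal RNA, 4895 TPM against 530 to 2684 TPM. For several genes the value without this library is given, but not for every gene that it moved. Of those not given below, cpr-4 turned from a log2 fold change of -0.03 to 0.03 without it and spp-16 from -0.10 to 0.002. In the same way asp-2 turned from 0.04 to -0.01 and spp-17 from 0.05 to -0.05. Among genes that kept their sign, spp-20 went from -0.41 to -0.61 and spp-28 from -0.09 to -0.34. Pairs of libraries correlated at 0.984 to 0.988 within groups and at 0.980 to 0.988 between groups, over the log2(TPM + 1) values of 12590 tested genes. Read counts were not used here, so the depth behind each value is unknown.

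The genes were unevenly spread over the chromosomes. On WBcel235, 42 of the 57 (73.7%) were on chromosomes V and X, and so were 71.4% of the tested ones, against 32.2% of 12072 tested protein-coding genes. The aspartyl proteases were on V (13 of 17), X (3) and IV (1), the cathepsins on V (8 of 10), X (1) and I (1), and the saposin-like genes on X (11 of 30), V (6), IV (5), I (4), II (2) and III (2). With gaps of at most 10000 bp, 27 of the 57 fell into 10 groups of neighbours and the rest stood alone; the share of all genes grouped in this way was not computed. The largest held spp-3, spp-2, spp-6, spp-4 and spp-5 within 5386 bp of chromosome X (7314969 to 7320354). The saposin-like genes were short, with a median coding length of 330 bp and 2 exons in the longest transcript of 16 of 30. The aspartyl proteases had a median coding length of 1173 bp and the cathepsins of 1008 bp. The longest saposin-like coding sequences were those of spp-10 (1287 bp), which is related to vertebrate prosaposin, and spp-8 (1206 bp).

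Several of these transcripts were abundant. The mean level over 6 libraries had a median of 131 TPM over the 42 tested members, against 16.7 TPM over all tested genes, and of 42.9 TPM over all 57 members. Together the 57 genes took 1.65% to 1.98% of the TPM in a library. The saposin-like spp-5, the gene of caenopore-5, had the highest level of all, at 3236 TPM, 44th among all tested genes. It was followed by asp-1, an aspartyl protease of the intestine, at 2826 TPM, by spp-14 at 2742 TPM and by asp-6 at 2269.8 TPM. These 4 genes held 61.7% of the summed TPM of the 57.

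**Figure D1:**
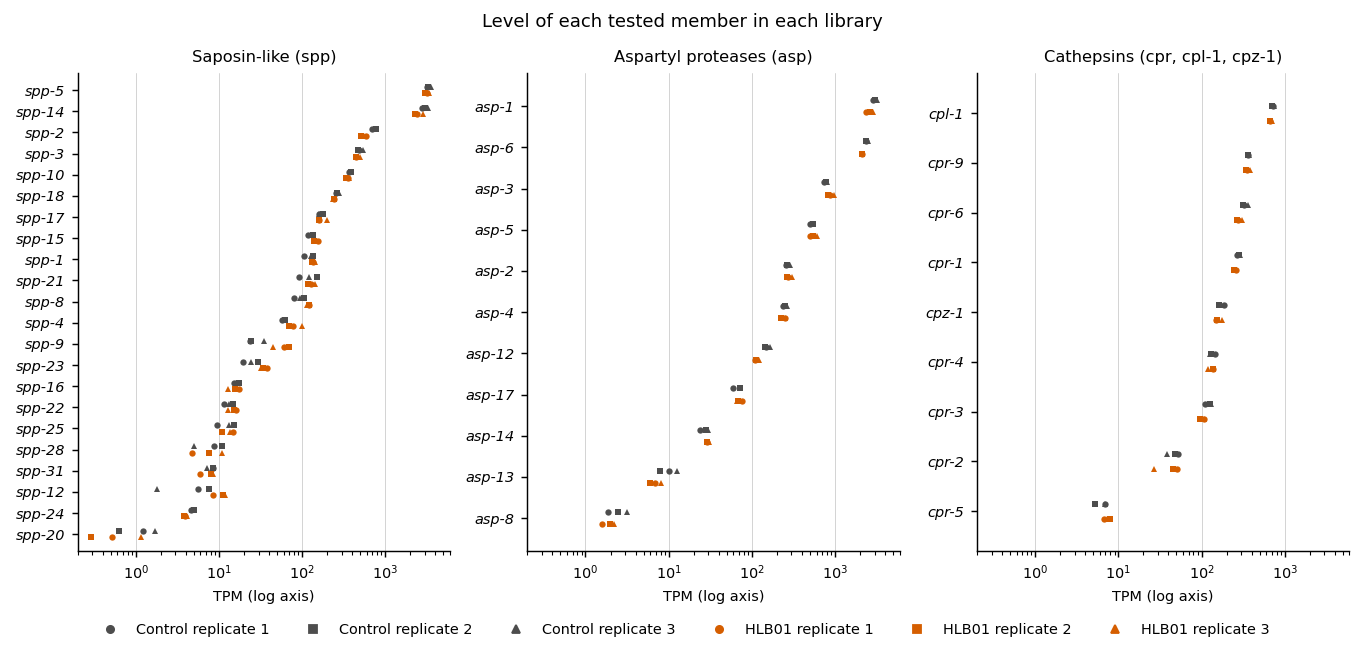
TPM of each tested gene in each of the 6 libraries, on a log axis, by family and ordered by mean level; grey is Control, orange is HLB01, and the symbol gives the replicate. Levels span from 0.92 TPM (spp-20) to 3236 TPM (spp-5) as means over 6 libraries, and the Control and HLB01 points of a gene lie close together on this scale.

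Within the saposin-like family the levels of spp-5 and spp-14 overlapped over the 6 libraries, and spp-14 was 4.22 times as high as the next gene, spp-2 (649 TPM), which overlapped spp-3 (480.5 TPM). Below them spp-10, spp-18 and spp-17, at 365, 253 and 169 TPM, each had a range clear of its lower neighbour. From spp-15 (138 TPM) through spp-1, spp-21, spp-8, spp-4 and spp-9 to spp-23 (29.5 TPM), each gene overlapped the next. The genes spp-16 to spp-24 were between 15.8 and 4.36 TPM, also with overlapping neighbours. Of the antibacterial caenopores named above, spp-1 was thus at 129.8 TPM and spp-12 at 7.71 TPM, against 3236 TPM for spp-5.

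Among the aspartyl proteases asp-1 overlapped asp-6, which was 2.73 times as high as asp-3 (832 TPM). The genes asp-3 and asp-4 (247 TPM) encode cathepsin D-like enzymes required for neuron death in worm models of necrosis. The gene asp-2 (274 TPM) overlapped asp-4, and every other neighbour in the order was clear of the next, from asp-5 (539.7 TPM) and asp-12 (133 TPM) to asp-13 (8.61 TPM) and asp-8 (2.21 TPM). The cathepsins were led by cpl-1, a cathepsin L that processes yolk protein and is needed for embryos to develop, at 701 TPM. It was 1.94 times as high as cpr-9 (362 TPM), which overlapped cpr-6 (308 TPM), which in turn overlapped cpr-1 (265 TPM), a cysteine protease of the gut. The cathepsin Z gene cpz-1, which acts in moulting, was at 167 TPM. It was followed by cpr-4 (132 TPM), a secreted cathepsin B, and cpr-3 (112.5 TPM), which overlapped cpr-4, and then by cpr-2 (43.3 TPM) and cpr-5 (6.84 TPM).

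The remaining 15 genes did not reach the filter. Of them 5 were listed at 0 in all libraries (asp-7, asp-18, asp-19, spp-26 and spp-30), and the other 10 had means of at most 0.737 TPM. The gene just inside the filter was spp-20, at 1.22, 0.63 and 1.71 TPM in Control replicates 1 to 3 and 0.52, 0.29 and 1.15 TPM in HLB01 replicates 1 to 3. Just outside it was spp-6, at 1.47, 1.49 and 0 TPM and at 0.70, 0 and 0.76 TPM. The gene spp-6 lies between spp-2 and spp-4, whose means were 649 and 71.8 TPM.

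HLB01 was set against Control to find transcripts that differ with treatment. The saposin-like genes were divided between higher and lower values in HLB01, up to a log2 fold change of 1.08. The 2 most abundant aspartyl proteases, asp-1 and asp-6, had lower values in HLB01. Of those next in level, asp-3 had higher values, while the groups of asp-5 overlapped (log2 fold change 0.05). No gene of the 3 families passed the limma test at an adjusted p below 0.05 over all genes, where 0.397% of all tested genes passed, 0.167% higher and 0.230% lower in HLB01. The smallest adjusted p was 0.0589, for asp-12. At an unadjusted p below 0.05, a threshold that does not correct for the number of genes, limma called 19 of the 42 (45.2%), against 8.32% of all tested genes. Of these, 7 were higher in HLB01, against a share of 3.80% of all tested genes, and 12 were lower, against 4.52%. Leaving out Control replicate 3 or HLB01 replicate 1 brought the 12 lower genes to 7. The values of the groups did not overlap for 18 of the 42, against 13.8% of all tested genes, with 7 higher in HLB01 (6.85% of all) and 11 lower (6.99% of all). The members are not independent of each other, since many are neighbours of related sequence.

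In absolute size, the log2 fold changes of the 42 had a median of 0.16, against 0.08 for all tested genes, and their range was -0.49 to 1.08. The members are more abundant than most genes, so the shares were also read by level. Of the 25 members with a mean of at least 100 TPM, 13 had an unadjusted p below 0.05, 3 higher and 10 lower, against 10.6% of 1638 tested genes at that level (5.01% higher and 5.56% lower). Of the 25, 17 had a negative log2 fold change, against 46.2% of the tested genes at that level. Of the 17 members below 100 TPM, 6 had an unadjusted p below 0.05, 4 higher and 2 lower, against 7.98% of tested genes. The rule for low values lets genes enter through 1 group alone, and the groups were read from the same values, so these counts describe the 42 genes and are no test of the families.

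**Figure D2:**
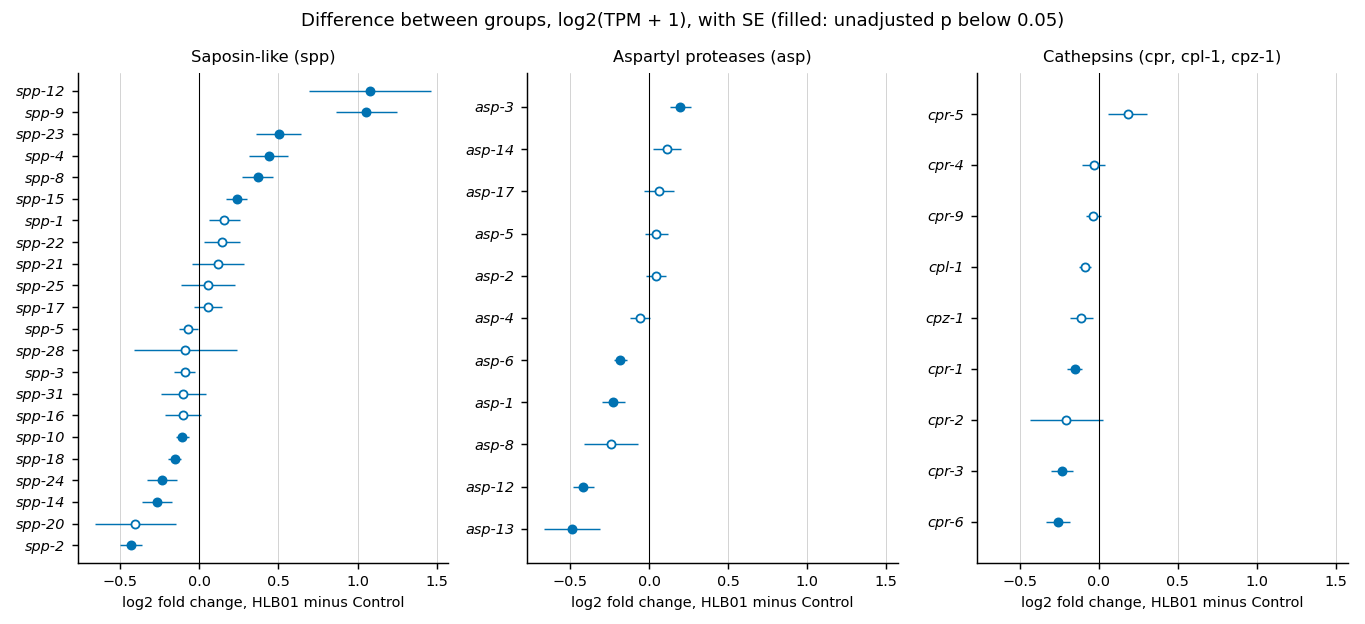
Log2 fold change of HLB01 minus Control on the log2(TPM + 1) scale with its SE from limma, for the 42 tested genes by family; filled points have an unadjusted p below 0.05. The saposin-like genes spread to both sides, from -0.43 (spp-2) to 1.08 (spp-12), while 8 of 9 cathepsins lie below 0.

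The summed TPM of the 57 genes was 17768, 18683 and 19757 in the Control libraries and 16769.7, 16491 and 18159 in the HLB01 libraries. The groups overlapped, and the mean was 8.52% lower in HLB01 (percent difference of -8.52). By family, the saposin-like sum was 9007 ± 584 TPM in Control and 8214 ± 545 TPM in HLB01 (mean ± SD, n = 3 each), and the aspartyl protease sum 7545 ± 382 and 6914 ± 353 TPM. Only the cathepsin sum did not overlap among these 3, at 2169, 2142 and 2241 TPM in Control and 1993, 1969 and 2073 TPM in HLB01. In RNA of whole samples, fewer cells of a type and less RNA per cell cannot be told apart.

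Among the aspartyl proteases, 5 of 11 tested genes had an unadjusted p below 0.05 in limma (45.5%, against 8.32% of all tested genes). Of these, 4 were lower in HLB01 and 1 higher. By sign, 5 of the 11 genes had a positive and 6 a negative log2 fold change (median -0.06). The gene asp-12 (WBGene00017678, chromosome V, 8269210 to 8272056) was at 148, 145 and 163.5 TPM in Control and at 108, 111 and 121.5 TPM in HLB01. Every HLB01 value was below every Control value. The means were 152 ± 10.07 and 114 ± 7.03 TPM (SD, n = 3 each), 1.34-fold lower in HLB01, with a log2 fold change of -0.42 ± 0.06 (SE) and an adjusted p of 0.0589 in limma. Over the 15 alternative settings that adjusted p ran from 0.0280 to 0.197, and it was below 0.05 with a filter of 5 TPM, with array weights and with a replicate block.

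The abundant asp-6 (chromosome V, 8267511 to 8268937) was at 2329.8, 2390.1 and 2521 TPM in Control and at 2135, 2122 and 2120.4 TPM in HLB01. The HLB01 libraries were close together (SD of 8.02 TPM) and below all Control libraries, 1.14-fold lower on average (log2 difference -0.18 ± 0.04, with adjusted p = 0.208 in limma). The gene asp-1 (chromosome V, 19049562 to 19050752) was at 2898, 2993 and 3244 TPM in Control and at 2375, 2618 and 2827 TPM in HLB01. Again the groups did not overlap, with a log2 fold change of -0.23 ± 0.07 (limma adjusted p = 0.433), and the unadjusted p of 0.0180 became 0.0598 when Control replicate 3 was left out and 0.0515 when HLB01 replicate 1 was.

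The lowly expressed asp-13 was at 10.0, 7.98 and 12.75 TPM in Control and at 6.81, 5.89 and 8.19 TPM in HLB01. Its groups overlapped (log2 difference -0.49 ± 0.18, with adjusted p = 0.518 in limma). Its unadjusted p of 0.0279 was above 0.05, at most 0.0882, in 4 of the 6 fits with a library left out, namely Control replicates 1 and 3 and HLB01 replicates 1 and 2. In the other direction, the lysosomal asp-3 (chromosome X, 6791064 to 6792709) was at 733, 782 and 809.5 TPM in Control and at 862, 834 and 973 TPM in HLB01. All HLB01 values were above all Control values, and the highest was that of HLB01 replicate 3. The log2 fold change was 0.20 ± 0.07 (limma adjusted p = 0.462) and 0.13 without HLB01 replicate 3. Its unadjusted p of 0.0217 was 0.0744 when Control replicate 1 was left out and 0.0623 with quantile normalization. The other gene of necrotic neuron death, asp-4, was at 252 ± 15.03 and 242 ± 15.5 TPM, a log2 fold change of -0.06 ± 0.06 (limma adjusted p = 0.861).

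The gene asp-5 was at 507, 538 and 546 TPM in Control and at 499, 547 and 601 TPM in HLB01. Its groups overlapped, and its log2 fold change of 0.05 ± 0.07 turned to -0.021 without HLB01 replicate 3. The remaining asp-2, asp-8, asp-14 and asp-17 had log2 fold changes of -0.24 to 0.11 and adjusted p of 0.788 to 0.905 in limma.

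**Figure D3:**
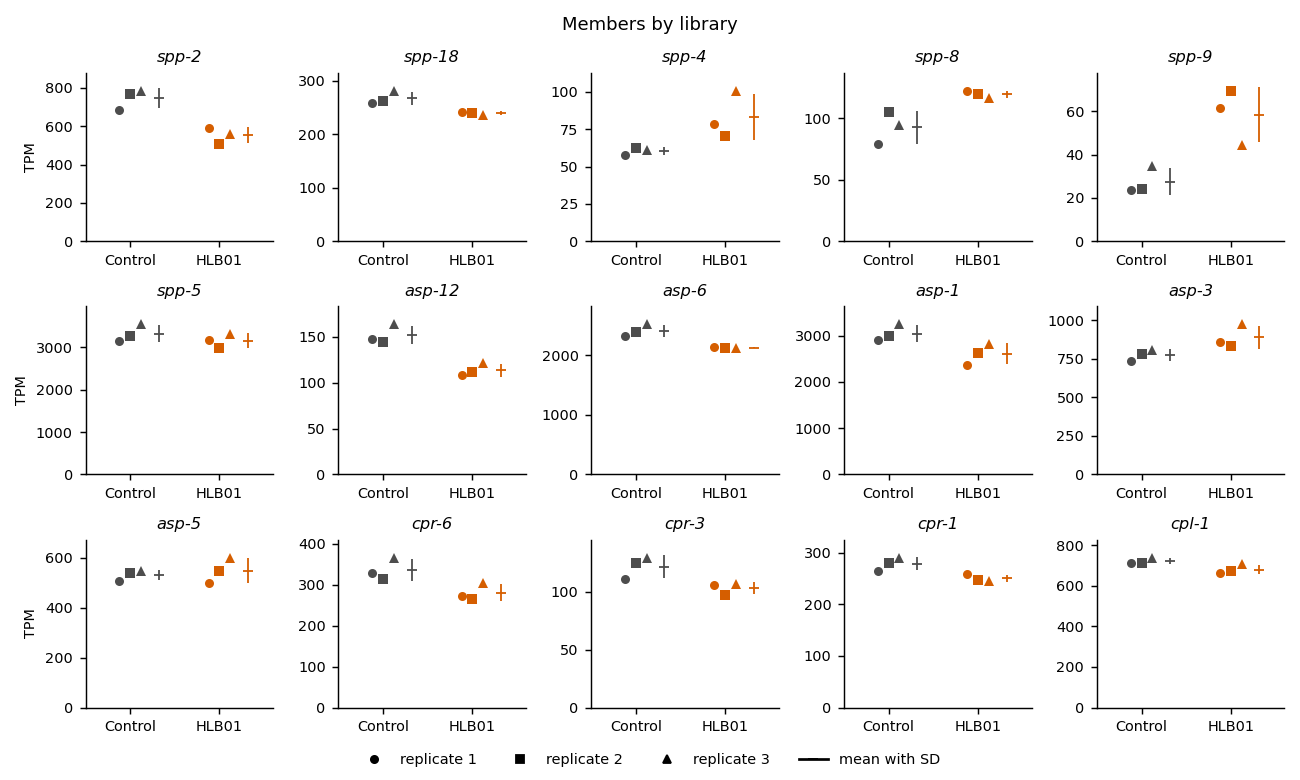
TPM of 15 genes in each library, with group means and SD beside the points; symbols give the replicate and every axis starts at 0. In asp-12, spp-2, cpr-6 and cpr-1 all HLB01 points lie below the Control points, in asp-3, spp-4, spp-8 and spp-9 above them, and in spp-5 and asp-5 the groups overlap.

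Of the 9 tested cathepsins none passed the adjusted test. At an unadjusted p below 0.05 in limma, 3 (33.3%) were lower in HLB01 and none higher. Of all tested genes, 8.32% were called at this threshold in either direction, 3.80% higher and 4.52% lower. By sign alone 8 of 9 log2 fold changes were negative (88.9%, against 51.3% of all tested genes), some of them close to 0, with a median of -0.11. Without HLB01 replicate 3, 6 of 9 were negative and 5 were lower at an unadjusted p below 0.05 in limma. Of all tested genes, 4.51% were lower in that fit. When any other library was left out, 3 of the 9 were lower. The cathepsin B-like cpr-6 (chromosome X, 6607207 to 6609045) was at 328, 313 and 366 TPM in Control and at 271, 265 and 304 TPM in HLB01. Its groups did not overlap (log2 difference -0.26 ± 0.07, with adjusted p = 0.346 in limma). The gene cpr-3 (chromosome V, 15296834 to 15298700) was at 111, 125 and 129.8 TPM in Control and at 106, 97.1 and 107 TPM in HLB01. It too was lower in every HLB01 library, although HLB01 replicate 3 came close to Control replicate 1 (log2 difference -0.24 ± 0.07, with adjusted p = 0.361 in limma).

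The gut protease cpr-1 (chromosome V, 11975551 to 11976756) was at 265, 279.9 and 291 TPM in Control and at 258, 248 and 245 TPM in HLB01. The groups did not overlap (log2 difference -0.15 ± 0.05, with adjusted p = 0.367 in limma). The unadjusted p of cpr-6, cpr-3 and cpr-1 was below 0.05 in the same direction in all 15 alternatives, up to 0.0368, 0.0411 and 0.0441 when a library was left out. The yolk-processing cpl-1 (chromosome V, 16592572 to 16595346) was at 714, 713 and 739 TPM in Control and at 662, 673 and 705 TPM in HLB01. Its groups did not overlap either, at a log2 fold change of -0.09 ± 0.04 (limma unadjusted p = 0.0613, adjusted p = 0.619). Without HLB01 replicate 3 the value was -0.11 and the limma unadjusted p 0.0220. When any other library was left out, that p was above 0.05, from 0.0871 to 0.177.

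The moulting gene cpz-1 was at 185, 164 and 170.4 TPM in Control and at 151, 155 and 176 TPM in HLB01, with overlapping groups (log2 difference -0.11 ± 0.07, with adjusted p = 0.756 in limma). Its value was -0.06 without Control replicate 1, -0.07 without HLB01 replicate 1, and -0.18 without HLB01 replicate 3, the highest HLB01 library. Without HLB01 replicate 3 the limma unadjusted p was 0.0202, and without any other library it was 0.118 to 0.439. The gene cpr-9 was at 363, 362 and 373 TPM in Control and at 352, 340.4 and 381 TPM in HLB01, with a log2 fold change of -0.03 ± 0.05 that was 0.0014 without HLB01 replicate 2. The secreted cathepsin B cpr-4 was at 133 ± 8.99 and 130.5 ± 9.96 TPM. The gene cpr-2 was at 51.9, 47.9 and 38.1 TPM in Control and at 50.1, 45.3 and 26.8 TPM in HLB01. HLB01 replicate 3 was its lowest library, and the log2 fold change of -0.21 ± 0.23 turned to 0.06 when it was left out. With all libraries, the only positive log2 fold change among the tested cathepsins was that of cpr-5, 0.18 ± 0.13, at 6.37 ± 0.993 and 7.32 ± 0.565 TPM.

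The saposin-like genes were divided, with 11 positive and 11 negative log2 fold changes (median -0.01). An unadjusted p below 0.05 in limma was reached by 11 of 22 (50%, against 8.32% of all tested genes), 6 higher and 5 lower in HLB01. The groups did not overlap for 10 (45.5%, against 13.8% of all tested genes). The highest expressed of the lower genes with no overlap was spp-2 (WBGene00004987, chromosome X, 7315995 to 7316818), at 686, 768 and 783 TPM in Control and at 590.3, 508 and 559 TPM in HLB01. It was 1.35-fold lower on average, from 746 ± 51.9 to 552 ± 41.4 TPM (SD, n = 3 each; log2 difference -0.43 ± 0.07, with adjusted p = 0.0747 in limma). Its adjusted p was 0.0889 to 0.308 when a library was left out.

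The gene spp-18 (chromosome IV, 9593712 to 9594413) was at 259, 261 and 280.1 TPM in Control and at 242, 240.02 and 236 TPM in HLB01. The groups did not overlap (log2 difference -0.16 ± 0.04, with adjusted p = 0.300 in limma). The abundant spp-14 (chromosome X, 7725979 to 7726383) was at 2731, 3024 and 3223 TPM in Control and at 2399.8, 2265 and 2809 TPM in HLB01. HLB01 replicate 3 overlapped Control replicate 1 (log2 difference -0.27 ± 0.09, with adjusted p = 0.480 in limma), and the value was -0.36 without HLB01 replicate 3. Its unadjusted p of 0.0240 was above 0.05, at most 0.0786, when Control replicate 2 or 3 or HLB01 replicate 1 or 2 was left out.

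The prosaposin-like spp-10 was at 378 ± 10.15 and 351 ± 13.7 TPM (log2 fold change -0.11 ± 0.04) and spp-24 at 4.803 ± 0.217 and 3.92 ± 0.157 TPM (-0.24 ± 0.09), with unadjusted p of 0.0404 and 0.0387 in limma. Both crossed 0.05 under several alternatives, 7 of 15 for spp-10 and 8 of 14 for spp-24. The caenopore gene spp-5 was at 3145, 3261 and 3538 TPM in Control and at 3177, 2984 and 3313 TPM in HLB01, with overlapping groups (log2 difference -0.07 ± 0.06, with adjusted p = 0.830 in limma). Its value ran from -0.11 to -0.02 as libraries were left out. The gene spp-3 was at 486, 467 and 535 TPM in Control and at 446, 449 and 499.9 TPM in HLB01, also with overlap (-0.09 ± 0.07, limma adjusted p = 0.791). Leaving out Control replicate 3 gave -0.04, and leaving out HLB01 replicate 3 gave -0.15.

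Among the genes higher in HLB01, spp-9 (WBGene00004994, chromosome X, 11487784 to 11488203) was at 23.8, 24.2 and 34.5 TPM in Control and at 61.4, 69.2 and 44.5 TPM in HLB01. All HLB01 values were above all Control values, with HLB01 replicate 3 the nearest to Control. The mean was 2.12-fold higher, from 27.5 ± 6.08 to 58.4 ± 12.6 TPM (SD, n = 3 each; log2 difference 1.05 ± 0.19, with adjusted p = 0.107 in limma). As libraries were left out in turn, the log2 fold change ran from 0.92 to 1.23 and the limma adjusted p from 0.0633 to 0.373. The largest fold change and the smallest p came without HLB01 replicate 3.

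The gene spp-4 (chromosome X, 7318239 to 7318756) was at 57.75, 62.4 and 61.1 TPM in Control and at 78.55, 70.2 and 100.4 TPM in HLB01. No value overlapped, and HLB01 replicate 3 was the highest. The log2 fold change was 0.44 ± 0.12 (limma adjusted p = 0.321) and 0.29 without HLB01 replicate 3, where the unadjusted p was 0.00376.

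The gene spp-8 (chromosome IV, 8481664 to 8483621) was at 78.8, 105 and 94.1 TPM in Control and at 121.9, 119.9 and 116 TPM in HLB01. Its HLB01 libraries were close together and above all Control libraries (log2 difference 0.37 ± 0.10, with adjusted p = 0.293 in limma).

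The other 3 higher genes lie outside the rule for named genes and were chosen after their values were seen. The gene spp-15 was at 117, 136.5 and 128 TPM in Control and at 155, 141 and 153 TPM in HLB01, and spp-23 at 19.6, 29.1 and 24.6 TPM and at 38.3, 33.9 and 31.6 TPM. Their log2 fold changes were 0.24 ± 0.07 and 0.50 ± 0.14, with a limma adjusted p of 0.332 each. The caenopore gene spp-12 was at 5.56, 7.54 and 1.78 TPM in Control and at 8.44, 11.1 and 11.9 TPM in HLB01. Its groups did not overlap, with a log2 fold change of 1.08 ± 0.39 (adjusted p = 0.510 in limma), and its unadjusted p was above 0.05 without HLB01 replicate 2 or 3. Without Control replicate 3, its lowest library, the value was 0.60. A further caenopore gene, spp-1, was at 123 ± 16.9 and 137 ± 5.37 TPM (log2 difference 0.16 ± 0.10, with adjusted p = 0.741 in limma). Its annotated end overlaps T07C4.3 on the other strand by 19 bp, at 128 TPM, and the sources used here do not state how the counting treated strand. The remaining spp-16, spp-17, spp-20, spp-22, spp-25, spp-28 and spp-31 had overlapping groups, log2 fold changes from -0.41 (spp-20) to 0.14 (spp-22) and limma adjusted p from 0.750 (spp-20) to 0.967 (spp-28).

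Neighbouring genes differed in level, and in some groups, but not in all, the sign of the difference changed from gene to gene. In the group of 5 on chromosome X, spp-2 was lower in HLB01 and spp-4, which lies 1420 bp away with spp-6 between them, was higher. The ratio of spp-4 to spp-2 in TPM was 0.0841, 0.0813 and 0.0781 in the Control libraries and 0.133, 0.138 and 0.180 in the HLB01 libraries. The 2 groups of ratios could not overlap, since spp-4 was higher and spp-2 lower in every HLB01 than in every Control library. The highest ratio was that of HLB01 replicate 3. Beyond these, spp-3 and spp-5 at the ends of the group had log2 fold changes of -0.09 and -0.07. These pairs were chosen after their values were seen and are given as a description.

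The genes spp-9 and spp-21 lie 1926 bp apart on chromosome X. The ratio of spp-9 to spp-21 was 0.259, 0.162 and 0.287 in Control and 0.475, 0.596 and 0.316 in HLB01, without overlap, while spp-21 itself was at 121 ± 28.9 and 129 ± 12.4 TPM (log2 fold change 0.12 ± 0.17). On chromosome IV, spp-10 and spp-8 lie 1007 bp apart. The gene hlh-12, at a mean of 0.857 TPM, overlaps spp-10 by 852 bp on the other strand. The ratio of spp-8 to spp-10 was 0.215, 0.275 and 0.244 in Control and 0.344, 0.357 and 0.320 in HLB01. Here too overlap was not possible, since spp-8 was higher and spp-10 lower in every HLB01 than in every Control library. On chromosome I, spp-17 (log2 fold change 0.05) is followed by spp-23 (0.50). The ratio of spp-23 to spp-17 was 0.122, 0.164 and 0.156 in Control and 0.240, 0.212 and 0.160 in HLB01, with overlap.

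Among the proteases, asp-6, asp-12 and asp-5 lie within 6534 bp on chromosome V. The genes asp-12 and asp-5 are 328 bp apart on the same strand, and the ratio of asp-12 to asp-5 was 0.292, 0.269 and 0.299 in Control and 0.216, 0.204 and 0.202 in HLB01. The groups of ratios did not overlap. The group of asp-17, asp-16, asp-15 and asp-1 spans 15030 bp of chromosome V, where asp-1 had a mean of 2826 TPM, asp-17 of 69.0 TPM, and asp-16 and asp-15 between them of 0.115 and 0.0333 TPM. How far reads of similar neighbours were divided between them by the authors' counting was not tested, since no sequences were used here.

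**Figure D4:**
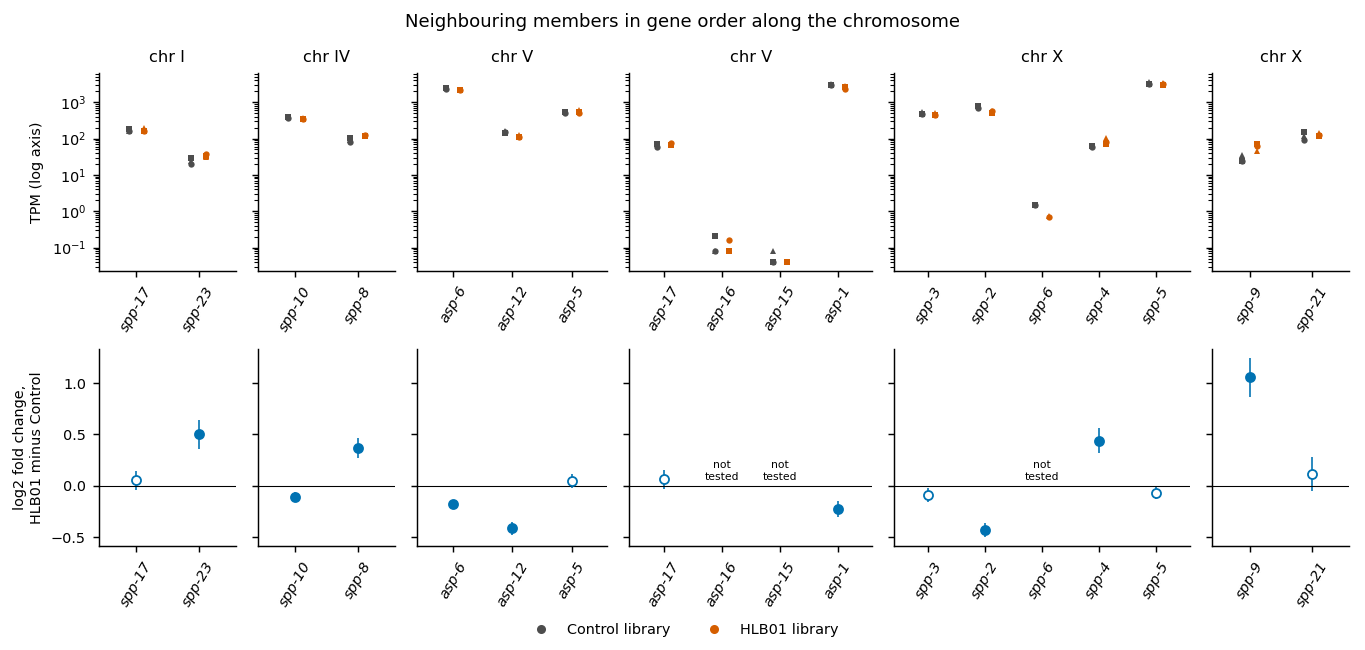
Neighbouring genes in their order along the chromosome, for the 6 groups with at least 2 tested genes: TPM per library on a log axis above (values of 0 are not drawn) and log2 fold change of HLB01 minus Control with its SE below, filled at an unadjusted p below 0.05. On chromosome X, spp-2 lies below 0 at -0.43 and spp-4 above 0 at 0.44.

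Other genes of the lysosome were read from lists. Of 33 tested hydrolases outside the 3 families, 1 passed over all genes in limma, where 0.397% of all tested genes passed. At an unadjusted p below 0.05, 1 was higher and 4 were lower, against 3.80% and 4.52% of all tested genes. Of the 33, 23 had a negative log2 fold change (median -0.04, against 0.00 for all tested genes). The gene that passed was asah-2, of the acid ceramidase family, whose enzymes cleave ceramide. It went from 63.3, 69.5 and 77.1 TPM in Control to 43.55, 38.9 and 41.9 TPM in HLB01 (adjusted p = 0.0177 in limma, with a log2 fold change of -0.74 ± 0.08). In alternatives chosen for it after its value was seen, asah-2 missed the threshold without Control replicate 2 or any 1 HLB01 library, with an adjusted p of up to 0.109, with no filter (0.0519) and in limma without the trend (0.0621). The cathepsin A-like ctsa-4.1, a serine carboxypeptidase, was next at 15.5 ± 1.82 and 9.52 ± 0.365 TPM (limma adjusted p = 0.0545).

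The pump and the membrane of the lysosome showed little difference. Of 21 tested subunits of the vacuolar proton ATPase, which acidifies the lysosome, none passed over all genes. At an unadjusted p below 0.05 (limma) 2 of them, vha-6 and vha-17, were higher and none was lower. Of all tested genes, 3.80% were higher and 4.52% lower at this threshold. The intestinal subunit gene vha-6 was at 80.5, 87.3 and 87.8 TPM in Control and at 96.3, 92.3 and 100.7 TPM in HLB01, and vha-17 at 238 ± 9.86 and 258 ± 7.22 TPM (limma adjusted p = 0.376 and 0.548). Of 15 tested genes of lysosomal membrane proteins and transporters none reached an unadjusted p below 0.05 in limma. The 2 with the smallest p were spin-4, at 10.7 ± 1.36 and 8.35 ± 1.65 TPM, and the membrane glycoprotein gene lmp-1, at 201 ± 11.6 and 186 ± 0.825 TPM.

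Of the list of other papain-type proteases and cystatins, 15 of 17 names matched the table. Of 9 tested papain-type proteases and cystatins outside the cathepsin names, none passed over all genes. At an unadjusted p below 0.05 in limma 1 was lower, against 4.52% of all tested genes. This was cpi-2, whose cystatin inhibits cathepsins, at 527, 514 and 529.75 TPM in Control and at 492, 503 and 468 TPM in HLB01 (limma adjusted p = 0.559). The other cystatin gene, cpi-1, was at 495 ± 21.7 and 436 ± 64.8 TPM, lowest in HLB01 replicate 3 at 364 TPM. Its log2 fold change was -0.19 with all libraries and -0.07 without that one. Of 15 tested regulators of lysosomal and gut genes none reached an unadjusted p below 0.05 in limma. In that list vps-33.1 and vps-39, of the complexes that tether lysosomes, had the smallest p, 0.0912 and 0.0971. The gene hlh-30, the worm relative of the lysosomal regulator TFEB, was at 36.2 ± 0.505 and 34.7 ± 1.46 TPM (limma adjusted p = 0.830), and elt-2, the main transcription factor of the adult intestine, at 12.9 ± 0.840 and 11.7 ± 0.593 TPM (limma adjusted p = 0.750).

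The summed TPM of 3 of these lists was lower in all HLB01 than in all Control libraries, with HLB01 replicate 3 the lowest. It was 552 to 569 TPM in Control and 533 to 551 TPM in HLB01 for the membrane proteins, 1198 to 1230.2 and 1023 to 1179 TPM for the papain-type proteases and cystatins, and 618 to 624 and 610.2 to 616 TPM for the regulators. The cystatins cpi-1 and cpi-2 made up 83.15% of the papain-type sum, and the other 13 genes summed to 194.5 to 205 TPM in Control and 191 to 198 TPM in HLB01, with overlap.

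Markers of the intestine were given beside these families because many of their genes are expressed there. Of 11 tested intestinal markers, 1 was higher (vha-6) and 1 lower (act-5) at an unadjusted p below 0.05 in limma. Of all tested genes, 3.80% were higher and 4.52% lower at this threshold. The median log2 fold change of the tested intestinal markers was -0.03. The summed level of all 12 was 450.5 to 476 TPM in Control and 439 to 460.05 TPM in HLB01, and none was at 0 in all libraries. The brush border actin gene act-5 was at 164, 166 and 173 TPM in Control and at 142, 152 and 146 TPM in HLB01, without overlap. The groups of vha-6, pept-1 and pho-1 did not overlap either, and these were higher in HLB01. Means in Control and HLB01 were 8.05 ± 0.377 and 9.41 ± 0.706 TPM for pept-1 and 4.74 ± 0.227 and 5.29 ± 0.405 TPM for pho-1. Without overlap, 3 markers were thus higher and 1 lower, against 6.85% and 6.99% of all tested genes. Sums of markers of oocytes and germline, sperm, body wall muscle, epidermis, pharynx and neurons overlapped between the groups, and none of their genes passed over all genes in limma. At an unadjusted p below 0.05 in limma, 1 of 12 sperm markers and 1 of 5 tested pharynx markers were lower and none was higher. The share of all tested genes lower at this threshold was 4.52%. The 3 coelomocyte markers were below the filter, with a sum of 0.58 to 0.64 TPM in Control and 0.26 to 0.60 TPM in HLB01. The part of any shift in tissue in the differences above was not tested.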

How the data were processed

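The authors deposited TPM values for 46778 genes in 6 libraries, a unit read from column totals of 996559 to 997388. The submitters' processing notes name fastp, HISAT, RSEM and WBcel235; versions, annotation, filters and strand were not stated in the sources used here. Per the labels' protocols, total RNA was extracted with TRIzol and DNase I. Because library totals are fixed, an abundant transcript that changes strongly moves the rest.

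Symbols came from a table of gene names, and coordinates from Ensembl release 115 (WBcel235), which held 46603 of the identifiers. Two-sided tests used limma 3.58.1 (R 4.3.3), with trend, on log2(TPM + 1) over the 12590 genes with at least 1 TPM in 3 libraries, adjusted by Benjamini-Hochberg (threshold 0.05). Fold changes on this scale understate those of low genes. The test was checked on simulated data. The members and lists were chosen with earlier results of these data known. Members given by library are, per family, the 5 with the smallest p and the 4 with the highest mean; members outside this were chosen after their values were seen. From each list, genes past the threshold and the 2 with the smallest p were named, besides hlh-30 and elt-2. Of 15 alternatives tried, the effects are in the closing section. No sequences were used here.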

Additional observations from a re-analysis of the deposited data

How the results depend on the processing

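With 15 alternatives, the 20 members picked by the rule for named genes kept their direction and their side of the adjusted threshold in 295 of 300 cases. Other genes given by library, such as cpr-2 and spp-12, are outside this count. In 3 cases asp-12 passed, so that the count of lower members was 1 in place of 0: with a filter of 5 TPM (limma adjusted p = 0.0486), with array weights (0.0365) and with the replicate block (0.0280). The count of higher members past the adjusted threshold was 0 in every one of these settings. Reversals, both of values near 0, were asp-5 without HLB01 replicate 3 and cpr-9 without HLB01 replicate 2. Over the 6 libraries left out in turn, the log2 fold change of asp-5 ran from -0.021 to 0.113 and that of cpr-9 from -0.0795 to 0.0014. Alternatives for cpr-2 and cpi-1 were added after their values were seen, and cpr-2 ran from -0.376 to 0.0625, turning positive without HLB01 replicate 3. When 1 library was left out, 6 to 8 members were higher and 7 to 15 lower at an unadjusted p below 0.05 in limma. Of all tested genes in these fits, 2.94% to 4.15% were higher and 3.53% to 4.85% lower. The members past the adjusted threshold stayed at 0. Whether the replicate numbers pair the libraries is unknown. Deviations from the group means correlated at -0.01, 0.04 and 0.13 for numbers 1, 2 and 3, and at -0.158 to 0.142 for unlike numbers. With 3 libraries a group such values cannot settle the pairing, so the block is only an alternative. No setting moved the median log2 fold change of all genes by more than 0.0145. With no counts, depth behind low values such as spp-20 is unknown, and 3 libraries a group limit what can be called.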
